A study of Mus musculus with 34 samples.

Results

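SMARCA4 is the motor subunit of SWI/SNF (BAF) chromatin remodelling complexes, and its rows in the developing mouse midbrain are described here against the rows of the matching input control. All 1513 rows of the SMARCA4-FLAG list and all 19772 rows of the control list were used, of 354733 rows in the 30 lists of the series. A row is 1 region that the authors called and deposited, in mm9 coordinates. Rows of either list were divided by whether they overlapped a row of the other by at least 1 bp, and rows over 10 kb from the nearest gene start in the authors' tables were called distal. This left 863 distal SMARCA4-FLAG rows outside the control.

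Both samples came from midbrain of embryonic day 11.5 embryos of a 129/C57BL/6 line that the labels describe as carrying a SMARCA4/FLAG knock-in, so the control embryos carried the tag too. Males and females were pooled, and each sample was made from about 300 embryos. Chromatin was precipitated with the monoclonal anti-FLAG M2 antibody for the SMARCA4 sample, and the second sample is labelled as its input control. The whole midbrain was pooled, so a row cannot be assigned to a cell type, and fewer occupied cells cannot be told apart from weaker occupancy per cell. There was 1 library on each side and therefore no replicate check, no p-value and no test of a difference. The intervals below are exact 95% Clopper-Pearson intervals over rows or gene names and cover counting error only. They treat rows as independent, although several rows can lie near 1 gene. Tags lack molecular identifiers, which these intervals do not address.

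SWI/SNF complexes use ATP to slide or evict nucleosomes, and SMARCA4 is 1 of their alternative motor subunits. In the embryonic nervous system the complex keeps progenitors dividing and later helps neurons to differentiate, and its subunits change between these states. Complexes of this kind act at gene starts and at distal enhancers, where H3K4me1 marks the flanking nucleosomes. An input library is, as a rule, sequenced without precipitation, and serves as the background of the assay.

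Promoters near a SMARCA4-FLAG row outside the control, with no control row near, held fewer CG dinucleotides than those with a control row near, a comparison with no test. A promoter here is the 250 bases before and 50 after a RefSeq gene start (GRCm38.p6), linked to a row by gene name alone. Of genes with exactly 1 such promoter, those within 1 kb of a SMARCA4-FLAG row outside the control and of no control row held a median of 12 CG dinucleotides (n = 51). The median was 22.5 (n = 28) for genes near a SMARCA4-FLAG row over the control, 23 (n = 15) for genes near both a SMARCA4-FLAG row outside the control and a separate control row, 23 (n = 4478) for genes near control rows alone and 7 over all 22862 such promoters. The motif GGGCGG, searched on both strands (CCGCCC on the other), was in 51.0% of the first group (36.6% to 65.2%), 71.4% of the second (51.3% to 86.8%), 86.7% of the third (59.5% to 98.3%), 72.2% of the fourth (70.9% to 73.5%) and 35.2% of all promoters. Each match is a description of letters and not of a bound site. The 3 promoters shown belong to the highest-scoring row of each class within 250 bp of its gene start, of those that could be shown, with every CG in capitals. They were chosen by score and not for their CG number: Rem2 lies below the lower quartile of its class (7), and the other two lie above the upper quartiles of theirs (27.5 and 30), so they differ more than the class medians do. Rem2, a small GTPase, is from the rows outside the control (chr14:54475850-54476149, plus strand, 5 CG). Gtf2ird1, a transcription factor gene, is from the rows over the control (chr5:134456667-134456966, minus strand, 31 CG). Klf13, a zinc finger transcription factor, is from the control rows alone (chr7:63938866-63939165, minus strand, 32 CG).
Rem2: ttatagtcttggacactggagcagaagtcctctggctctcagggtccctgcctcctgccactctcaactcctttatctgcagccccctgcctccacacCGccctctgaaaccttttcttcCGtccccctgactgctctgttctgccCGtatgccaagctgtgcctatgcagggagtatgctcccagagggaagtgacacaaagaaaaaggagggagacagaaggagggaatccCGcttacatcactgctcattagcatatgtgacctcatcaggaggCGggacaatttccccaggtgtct
Gtf2ird1: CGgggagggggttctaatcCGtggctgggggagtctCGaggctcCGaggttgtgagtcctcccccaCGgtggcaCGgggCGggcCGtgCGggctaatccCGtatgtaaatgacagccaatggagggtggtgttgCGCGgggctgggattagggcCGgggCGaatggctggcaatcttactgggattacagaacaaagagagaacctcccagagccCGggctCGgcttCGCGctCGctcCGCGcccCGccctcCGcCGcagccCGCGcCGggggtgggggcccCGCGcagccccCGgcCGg
Klf13: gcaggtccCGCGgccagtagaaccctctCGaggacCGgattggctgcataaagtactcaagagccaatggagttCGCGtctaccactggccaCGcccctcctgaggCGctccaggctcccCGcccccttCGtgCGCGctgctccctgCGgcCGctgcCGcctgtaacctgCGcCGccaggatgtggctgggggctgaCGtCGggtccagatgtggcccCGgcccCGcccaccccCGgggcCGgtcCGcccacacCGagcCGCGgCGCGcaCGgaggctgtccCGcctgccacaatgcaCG

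The SMARCA4-FLAG list was the shorter list by far. It covered 1.39 Mb, against 12.9 Mb for the control, which held 13.1 rows for each SMARCA4-FLAG row. Every one of the 1513 SMARCA4-FLAG rows carries an authors' false discovery rate of 100%, and no control row has one. Every score was at least 50 in both lists. The score, tags and fold enrichment are the authors' own and are compared only between rows of the same list. Where tags of a control row are printed beside those of a SMARCA4-FLAG row, they are not scaled between the libraries. The conservation score belongs to the genome and is compared across lists, whose rows differ in length. Chromosome X held 10 SMARCA4-FLAG rows (0.661% of the list, 0.317% to 1.21%) and 306 control rows (1.55%, 1.38% to 1.73%).

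Few SMARCA4-FLAG rows lay over the control. The overlap took in 173 of 1513 rows, or 11.4% (9.87% to 13.1%), and from the other side 176 of 19772 control rows, or 0.890% (0.764% to 1.03%). The other SMARCA4-FLAG lists of embryonic tissue overlapped the same control more often, from 15.1% of rows in heart and 34.4% in face to 66.3% in forebrain and 80.8% in limb. The list of embryonic stem cells did so in 6.30% of rows. The other 5 FLAG lists with a control of their own overlapped that control in 0%, 0.177%, 0.354%, 25.3% and 64.4% of rows. What each list was called against is not given in the sources used here. If a control list was called with the immunoprecipitated library as its background, the calling itself would keep the overlap low, and its part in these shares was not tested.

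SMARCA4-FLAG rows outside the control were mostly far from gene starts, and those over the control mostly close to them. Of the 1340 rows outside, 64.4% (61.8% to 67.0%) were distal and 14.6% (12.7% to 16.6%) lay within 1 kb of a gene start, with a median distance of 19.1 kb. Of the 173 rows over the control, 24.9% (18.6% to 32.0%) were distal and 54.3% (46.6% to 61.9%) lay within 1 kb, with a median of 0.735 kb. Control rows alone resembled the rows over the control in this, with 32.0% distal, 52.1% within 1 kb and a median of 0.694 kb. Read the other way, 32.5% of SMARCA4-FLAG rows within 1 kb lay over the control (27.2% to 38.3%), and 4.75% of distal rows did (3.46% to 6.34%).

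**Figure D1:**
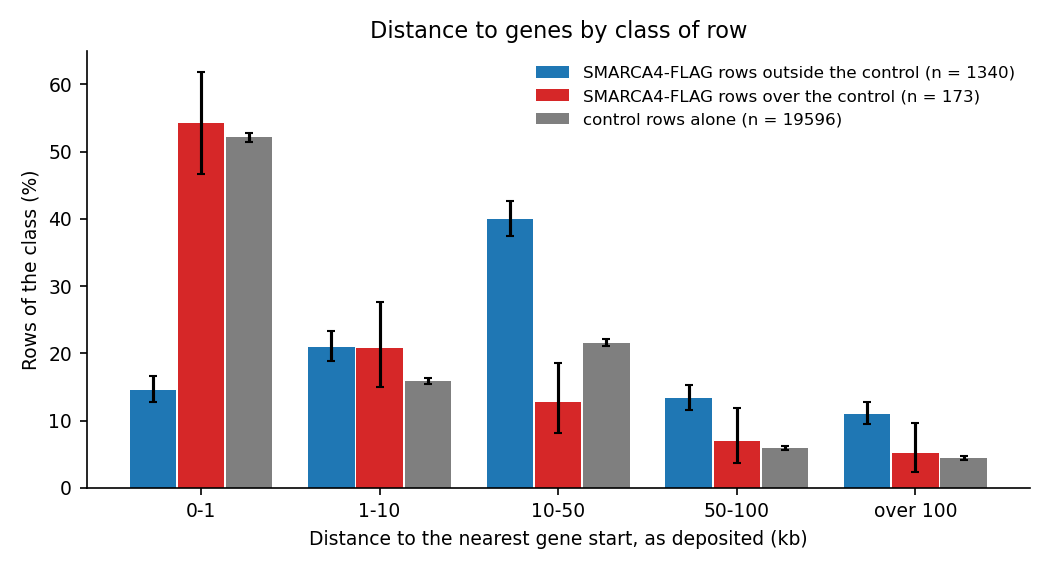
Share of rows (vertical axis, %) by distance to the nearest gene start (horizontal axis, kb) for SMARCA4-FLAG rows outside the control, SMARCA4-FLAG rows over it, and control rows alone; error bars are exact 95% intervals. Rows outside the control peaked at 10 to 50 kb with 40%, and the other classes within 1 kb with 54.3% and 52.1%.

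The rows over the control were the long rows with many tags. Their median was 90 tags, from 21 to 331, against 28 tags outside, from 9 to 213. Their median length was 1489 bp against 680 bp. Their median fold was lower, 8.33 against 15.8, and the median scores were close at 63.5 and 63.2. Longer rows meet a 1 bp overlap rule more readily, and the background used for the fold is not given. The part of either in these differences of length and fold was not tested. Rows were divided at the quartiles of tags. Of the 391 rows below the lower quartile 0 lay over the control, with an upper bound of 0.939%. The share was 0.260% between the lower quartile and the median, 4.18% between the median and the upper quartile, and 41.5% (36.5% to 46.7%) above it. Tags and distance moved together, and above the upper quartile the share over the control was 62.4% (53.6% to 70.7%) within 1 kb and 29.5% (22.1% to 37.8%) among distal rows. Of the rows above it, 44.3% of those outside the control were distal and 26.1% of those over it, a smaller gap than in the whole list.

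**Figure D2:**
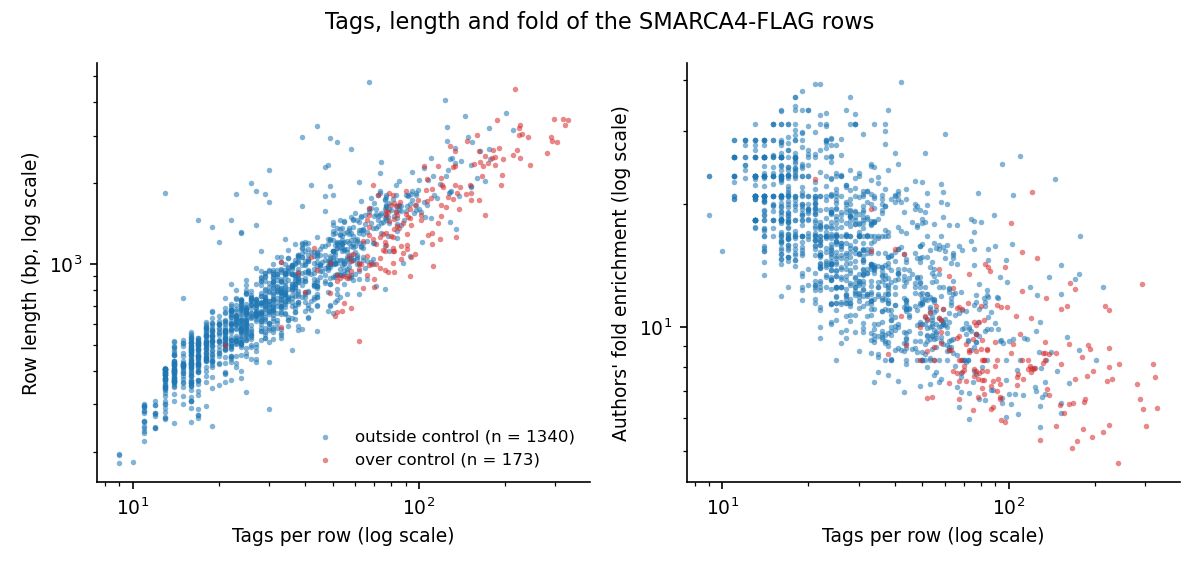
Tags per row (horizontal axes) against row length in bp (left) and the authors' fold enrichment (right), all on log scales, with 1 point for each of the 1513 SMARCA4-FLAG rows. Rows over the control (red, n = 173) sit at many tags, long rows and low fold, and rows outside it (blue, n = 1340) fill the rest.

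The 10 rows over the control with the most tags had 241 to 331 tags, and 6 of them lay within 1 kb of a gene start. All 10 lay over forebrain H3K4me1 and over forebrain H3K4me3, a mark of active gene starts. The shares over all 173 rows over the control were close to this, at 87.9% and 94.2%. The row at Brd2, a bromodomain reader of acetylated histones, had 331 tags over 3434 bp and a fold of 6.34. Below it lay control rows of 58 and 37 tags. Hmga1, which encodes an architectural chromatin protein, had a row of 319 tags with a control row of 53 tags below it. Rhob, a small GTPase, had 244 tags, and its control row 60. At Zbtb25, a zinc finger gene, the row had 303 tags and a fold of 5.76, and the control row below it had 125 tags. All of these rows were strong in tags and modest in fold, and tags are not scaled between the 2 libraries. The others of the 10 were nearest to Lrrc4b, 1700019O17Rik, 2700081O15Rik and 3 names that are sequence accessions.

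Rows over the control also included genes of neural development. Notch1, the receptor that holds neural progenitors back from differentiation, had a row of 224 tags 16.2 kb away over the control, with a fold of 11.04. It had a second row outside the control, 2.46 kb away, with 44 tags. Sox1, a transcription factor of neural progenitors, had a row 34.2 kb away with 94 tags. Myt1l, a zinc finger factor of neurons, had a row 248 kb away with 72 tags over the control and another 159 kb away with 23 tags outside it. Gene names nearest to a row over the control made up 0.897% of the 18835 names in the 16 tables that give one. The lists of genes held 1 forebrain gene among them (Six3), 1 axon guidance gene (Epha4), 1 adhesion gene (Lsamp), 1 neuron gene (Myt1l), 2 of 15 progenitor genes (Notch1 and Sox1) and 0 of 25 midbrain genes.

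Outside the control, rows close to a gene start were led by AK084828, a sequence accession, with a score of 380.29 and 110 tags. Next came Ddr1, a collagen receptor kinase, with 176 tags 0.306 kb from its start, and Rem2 with 90 tags at 0.164 kb. Camta1, a calmodulin-binding transcription activator, had 171 tags at 0.387 kb. These rows had tag numbers as high as many rows over the control. That no control row touched them follows from the class they were taken from.

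The 863 distal rows outside the control were short rows of few tags. Their median was 25 tags, with quartiles of 17 and 37, and their median length was 624 bp. Their median fold was 16.7. By the authors' columns, 446 of them (51.7%) lay wholly in the columns headed ig5 or ig3, all of these at least 20.4 kb from a gene start, and 190 (22.0%) wholly in introns. The table does not explain those 2 headings. Closest to the 10 kb limit, BC046404, Prcd and Gtf2ird1 had rows at 9.91, 9.96 and 9.98 kb with 33, 53 and 32 tags, and Grhl2, Myo10 and AK039607 had rows at 10.1 kb with 34, 24 and 40 tags. The conservation score was 346, 292 and 433 inside the limit and 0, 0 and 397 outside it.

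The median conservation score was 378 for the 863 rows and 377 for the 6266 distal control rows outside the SMARCA4-FLAG list, a difference of 1 (-15 to 21, from exact order statistics of both medians). A score of 0 was less common, 17.4% against 25.3%. The difference changed with the setting: above 50 kb it was 45 (19 to 82), and against the control shortened by score to as many rows as the SMARCA4-FLAG list it was -53.5 (-113 to -8). Within the SMARCA4-FLAG list, the median was 427 for rows over the control and 384 for rows outside it. A score of 0 was held by 8.09% and 15.4% of these rows. None of these conservation values was compared at matched row lengths. Median lengths were 624 and 383 bp in the first comparison, and 1489 and 680 bp within the list.

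The 10 distal rows of highest conservation had 11 to 47 tags. Sdccag8, a ciliary and centrosomal protein gene, led with a score of 720 and 14 tags at 115 kb. Fign, an ATPase that severs microtubules, had a row of score 711 and 11 tags at 127 kb. The Iroquois homeobox genes Irx3 and Irx4 had rows of score 707 at 172 kb and 691 at 225 kb, with 25 and 18 tags. Lmo1, a LIM-only transcriptional cofactor, had a row of score 696 with 47 tags 26.5 kb away. It also had a row 21.9 kb away over the control, with 58 tags and a score of 730. Zfp521, a zinc finger factor of neural differentiation, had a row of score 701, and Fgf1, a fibroblast growth factor, one of 683. All 10 lay over forebrain H3K4me1, 0 over forebrain H3K4me3, and 3 (near Fign, Irx4 and AK042944) in no other SMARCA4-FLAG list. The shares over all 863 rows were 82.3%, 32.3% and 26.1%.

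The 20 distal rows of highest score outside the control had 37 to 213 tags with a median of 75. The highest was near Parvg, a parvin of integrin adhesions, with a score of 304.71, 145 tags and a fold of 22.92 at 25.2 kb. Gadd45g, a stress-response gene expressed as neural progenitors leave the cell cycle, had a row of score 280.23 and 104 tags at 73.2 kb. Both rows had a conservation score of 0. The row 69.1 kb from Sox13, a SoxD transcription factor, had 178 tags and a conservation score of 622, and it overlapped 6 of the 7 other SMARCA4-FLAG lists and 3 of the other control and input lists. Nedd4, a ubiquitin ligase, had the highest fold of all 863 rows, 39.58, with 42 tags at 22.4 kb. Cntn2, an axonal adhesion protein, had 51 tags at 39.8 kb. Ssbp3, a partner of LIM-domain transcription complexes, had 69 tags at 46.0 kb, and Atoh8, a bHLH factor, had 49 tags at 19.8 kb. Klf13 had a row of 76 tags at 18.7 kb, while its control row, 168 tags at 0.0180 kb, did not touch a SMARCA4-FLAG row. Of the 20 rows, 19 lay over forebrain H3K4me1 (the row near Atoh8 did not) and 14 over forebrain H3K4me3. All 20 lay in at least 1 other SMARCA4-FLAG list. Over all 863 rows, 82.3% lay over forebrain H3K4me1, 32.3% over forebrain H3K4me3 and 26.1% in no other SMARCA4-FLAG list. The remaining names in order of score were 6720458F09Rik, AK039624, AK041328, BC096410, Copz2, Tssc1, Acbd3, BC100417, AK054515, Efcab1, Cuedc1 and Gramd1b.

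The distal rows lay near many genes, mostly 1 row each. The 863 rows were nearest to 712 gene names, which is 3.78% of the 18835 names, and 232 of the rows were nearest to a name that is a sequence accession. Distal control rows outside the SMARCA4-FLAG list were nearest to 4148 names (22.0%). Of the 712 names, 423 were also nearest to a distal control row, which is 59.4% of the SMARCA4-FLAG names and 10.2% of the control names. A single row was nearest to 599 names, 89 names had 2 rows, 15 had 3, 6 had 4, 1 had 5 and 2 had 6.

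Mycn and Gse1 had 6 distal rows each. Mycn encodes the MYC-family factor that drives division of neural progenitors. Its rows spanned 188 kb, and at 318, 288, 264, 246, 138 and 130 kb from the gene they had 13, 18, 25, 22, 44 and 32 tags. The highest tags were thus in the 2 rows closest to the gene. All 6 lay over forebrain H3K4me1, as did 82.3% of all 863 distal rows outside the control. The rows of Gse1, at 91.4, 78.8, 63.4, 21.8, 15.0 and 11 kb, had 38, 33, 176, 52, 83 and 202 tags. Gse1 had 9 SMARCA4-FLAG rows in all, 1 of them over the control, and 11 control rows. Mycn had 2 control rows, 1 of them distal.

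Bach2, a transcriptional repressor with a BTB domain, had 5 rows, with 22, 49, 25, 21 and 16 tags at 13.6, 64.7, 128, 20 and 28.0 kb. Tle3, a Groucho-family corepressor, had 4 rows of 33, 11, 39 and 14 tags, and Vrk1, a nuclear kinase, had 4 of 21, 35, 29 and 30 tags. Slit1, a secreted ligand of Robo receptors that repels growing axons, had 3 rows of 24, 20 and 68 tags at 50.0, 55.3 and 74.2 kb, and no distal control row was nearest to it. Sdk2, an adhesion molecule of synaptic layers, had 3 rows of 18 to 34 tags between 17.7 and 106 kb, and 3 distal control rows. Centg2 had 3 rows against 7 distal control rows, so several rows near 1 gene were not confined to the SMARCA4-FLAG list.

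**Figure D3:**
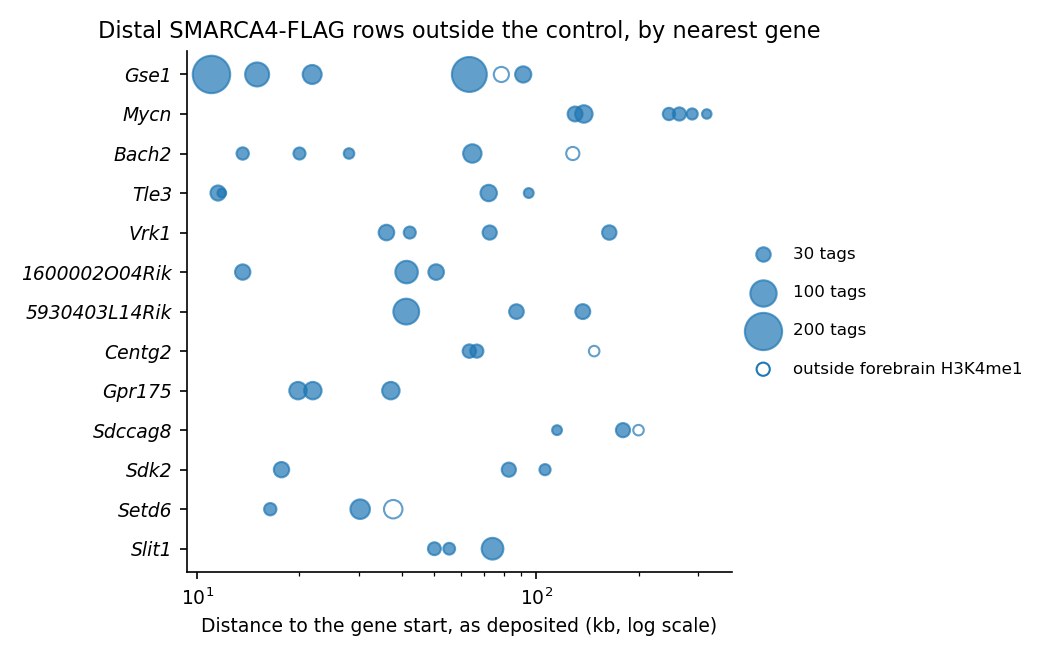
Distance to the gene start (horizontal axis, kb, log scale) of each distal SMARCA4-FLAG row outside the control, for genes with 3 or more such rows other than names of the form AK and digits; circle area grows with tags and open circles lie outside forebrain H3K4me1. The 6 rows of Mycn lie between 130 and 318 kb, and those of Gse1 between 11 and 91.4 kb with up to 202 tags.

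Lists of genes were read against the share of all names, 3.78% for distal SMARCA4-FLAG rows outside the control. Among midbrain genes, 4 of 25 were nearest to such a row, or 16% (4.54% to 36.1%), and the interval lay above 3.78% in this list alone of the 12 described. That did not hold in 2 other settings: the count was 2 of 25 (0.984% to 26%) in the higher-scoring 50% of SMARCA4-FLAG rows, where 1.95% of all names were nearest to such a row, and 1 of 25 (0.101% to 20.4%) over 50 kb, where the share was 1.44%. The same list was high for the control too, with 13 of 25 nearest to a distal control row, or 52% (31.3% to 72.2%), against 22.0% of all names. Intervals for the control also lay above 22.0% in forebrain genes (9 of 16, 29.9% to 80.2%) and mesenchyme and crest genes (8 of 16, 24.7% to 75.3%). WNT and FGF genes were above it too (10 of 22, 24.4% to 67.8%), so this was not particular to midbrain genes. En2, the engrailed factor of the midbrain and its hindbrain border, had a row 26.7 kb away with 25 tags and a fold of 23.81. Pax7, a dorsal midbrain factor, had 53 tags at 21.3 kb. Tal2, a bHLH factor of midbrain GABAergic neurons, had 17 tags at 17.6 kb, and Pax3, another dorsal paired-box factor, had 14 tags at 53.9 kb. The rows near En2 and Pax3 were in no other SMARCA4-FLAG list, and those near En2, Pax7 and Tal2 lay over forebrain H3K4me1. Over all 863 distal rows these shares were 26.1% and 82.3%, and 4 rows are too few to set against them. Gata3, a further midbrain factor, had a row of 17 tags 5.15 kb away, short of the limit. Because occupancy is not expression, these genes do not check the dissection.

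The other neural lists held 0 to 2 genes each. Forebrain genes had 1 of 16 (Eomes, 21 tags at 88.9 kb), hindbrain genes 0 of 12, progenitor genes 1 of 15 and neuron genes 1 of 13. The progenitor gene was Nes, which encodes the intermediate filament nestin and had 49 tags at 11.6 kb. Axon guidance genes had 2 of 19, Slit1 and Slit3. The latter had 2 rows, of 20 and 18 tags, at 30.1 and 34.2 kb. Adhesion genes had 1 of 15, Cdh2 (N-cadherin), with 20 tags at 98.1 kb. Each of these shares had an interval that reached below 3.78%. The WNT and FGF list had 2 of 22, or 9.09% (1.12% to 29.2%), an interval that also reached below 3.78%. They were Fgfr3, a receptor, with 57 tags at 23.3 kb, and Axin2, a feedback inhibitor of WNT signalling, with 13 tags at 34.8 kb.

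Of the genes of the complex itself, 2 of 23 were nearest to a distal row, or 8.70% (1.07% to 28.0%). This interval reached below the 3.78% of all names, and distal control rows were nearest to 9 of 23 (39.1%). Arid1b, a large DNA-binding subunit, had 38 tags at 48.5 kb, and 6 distal control rows were nearest to it. Neud4, an older name of Dpf1 in RefSeq and a subunit of the neuronal complex, had 163 tags at 13.2 kb and no distal control row. Smarcd3 had a row of 64 tags at 4.15 kb. Among lists of other tissues and cells, endothelial genes had 0 of 13, mesenchyme and crest genes 1 of 16 (Alx4, 16 tags at 54.4 kb) and housekeeping genes 0 of 13. Distal control rows were nearest to 4 of 13 endothelial, 8 of 16 mesenchyme and crest, and 2 of 13 housekeeping genes. Of the 10 erythroid genes, 6 were named in the tables, too few to read.

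**Figure D4:**
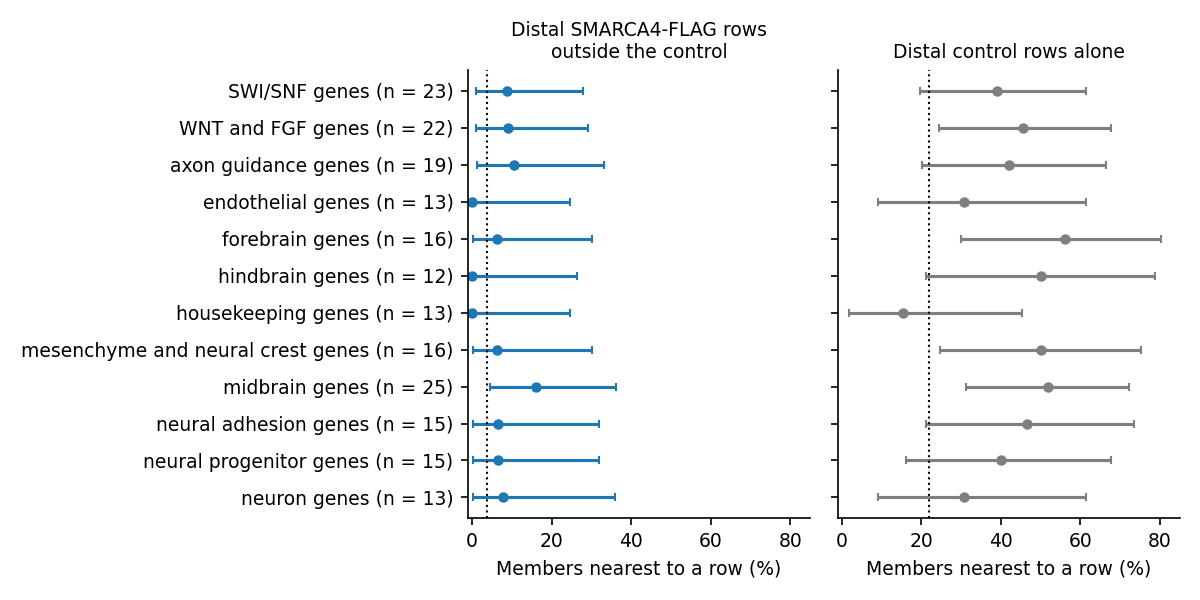
Share of each gene list (horizontal axes, %) nearest to a distal SMARCA4-FLAG row outside the control (left) or to a distal control row alone (right), with exact 95% intervals; n is the number of members named in the tables, and the dotted lines are the shares of all 18835 names, 3.78% and 22.0%. Of the 12 lists, 9 points lie above the line on the left and 11 on the right.

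Most distal rows outside the control lay over H3K4me1. The share was 82.3% (79.6% to 84.8%) over forebrain H3K4me1 and 78.2% (75.3% to 80.9%) over limb H3K4me1. No midbrain histone list is used here. Distal control rows outside the SMARCA4-FLAG list were at 25.0% (24.0% to 26.1%) and 39.6% (38.3% to 40.8%). The summit alone gave 80.3% and 22.6% for forebrain. Row length moves with overlap, and among rows of 469 to 900 bp, the quartiles of the distal SMARCA4-FLAG rows, the forebrain shares were 84.5% (n = 431) and 37.8% (n = 1504), and the limb shares 79.1% and 52.7%. Limb H3K27ac, a mark of active elements, held 31.1% of the distal SMARCA4-FLAG rows and 12.5% of the control rows. Neither this comparison nor those of H3K27me3 below were matched for row length. Forebrain H3K4me3 held 32.3% and 15.4%, but 32.7% and 29.5% at matched lengths. Forebrain H3K27me3, the Polycomb mark, held 4.17% and 4.88%, and limb H3K27me3 held 17.5% (15.0% to 20.2%) and 14.6% (13.7% to 15.5%). The distal rows over the control, 43 in number, lay over forebrain H3K4me1 in 97.7% (87.7% to 99.9%).

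**Figure D5:**
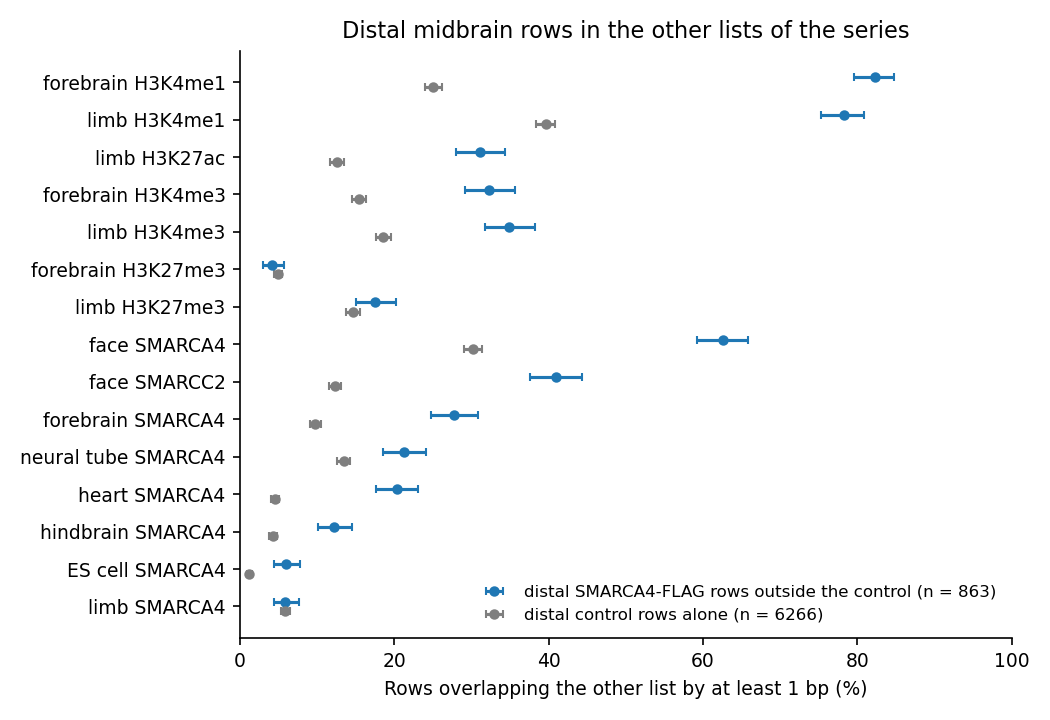
Share of distal rows (horizontal axis, %) that overlap each other list by at least 1 bp, for SMARCA4-FLAG rows outside the control (blue, n = 863) and control rows alone (grey, n = 6266), with exact 95% intervals. The blue points are highest for H3K4me1 of forebrain (82.3%) and limb (78.2%), and the classes meet at forebrain and limb H3K27me3 and limb SMARCA4.

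Other SMARCA4-FLAG lists shared many of the distal rows. The face list held 62.6% (59.2% to 65.8%) of the 863 rows, forebrain 27.7%, neural tube 21.2%, heart 20.3%, hindbrain 12.2%, stem cells 5.91% and limb 5.79%. These lists differ in length, the face list being the longest, so their shares give no order of likeness between tissues. The same lists held 30.2%, 9.75%, 13.4%, 4.53%, 4.29%, 1.18% and 5.87% of the distal control rows. These shares were not matched for row length. The face list of SMARCC2, a further core subunit of the complex, held 40.9% (37.6% to 44.3%) and 12.3% (11.5% to 13.1%). Among rows of 469 to 900 bp it held 39.2% and 19.5%. Within 1 kb of gene starts, the neural tube SMARCA4 list held 41.5% of SMARCA4-FLAG rows outside the control and 70.3% of control rows alone. Limb held 16.4% and 34.2%, and face 84.6% and 88.0%. Forebrain (48.7% and 37.2%), heart (30.3% and 15.3%) and stem cells (8.72% and 2.93%) held more of the SMARCA4-FLAG rows. The hindbrain shares were close, at 21.5% (16.0% to 28.0%) and 20.4% (19.6% to 21.2%). These shares near gene starts were not matched for row length either. In all, 225 of the 863 rows (26.1%, 23.2% to 29.1%) lay in no other SMARCA4-FLAG list, and 0 lay in all 7 others. Of the 43 distal rows over the control, 3 (6.98%, 1.46% to 19.1%) lay in no other SMARCA4-FLAG list, and of the rows outside the control within 1 kb of a gene start, 15 of 195 (7.69%, 4.37% to 12.4%). Control lists of other samples touched few of the distal rows, and 689 (79.8%, 77.0% to 82.5%) lay outside every other control and input list. The control of EP300 in face held 17.7% of them and 32.9% of the distal control rows.

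Control rows without a SMARCA4-FLAG row were led by gene starts. The 5 of highest score were at Tsc22d2, Cpeb2, Kcnn2, Klf13 and Dmn, with 175, 157, 135, 168 and 107 tags, all within 1 kb and all over forebrain H3K4me3. Each also overlapped at least 1 SMARCA4-FLAG list of another tissue. Of all 10212 control rows alone within 1 kb, 91.8% lay over forebrain H3K4me3 and 6.72% in no other SMARCA4-FLAG list. The median length of distal control rows was 383 bp and their median tag number 11.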

How the data were processed

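Immunoprecipitated chromatin and its input control were sequenced. Per the submitters' processing notes, BWA (no version given) placed the reads on mm9. No source used here names the peak caller. Per the file headers, the deposited tables hold for each region its position and summit, its tag count and read depth (a signal), a score made from the log10 of the p-value, the fold over background, the FDR in percent, a score of conservation, and a gene with the distance to it. The other 14 lists give positions and a rank, and the positions alone were used. Depth is unknown beyond the tags per row. For the 18934 transcripts with at least 2 rows, row summits and deposited distances fit 1 common point each, taken here as the gene start. Python 3.11.15 with pandas 2.3.3 and scipy 1.17.1 computed overlaps, shares and medians, and the overlap functions were tested on simulated data. Gene lists were matched by symbol, or by an older RefSeq symbol that no other gene holds, on the same chromosome. Motifs and promoters came from RefSeq (GRCm38.p6), and no mm9 sequence was used. Named genes were the 20 distal rows outside the control of highest score, genes with 2 or more such rows (values for those with 3 or more that the text discusses), list members, the 10 rows over the control with the most tags, the 10 of highest conservation and the 5 control rows of highest score. The rows at the 10 kb limit and the rows near gene starts were added after their values were seen. The members and lists were chosen with earlier results of these data known. The 4 samples of the series without a list were not analysed here. Alternatives were another overlap rule, a widened or shortened control, the higher-scoring rows of the list, other distance limits and other controls.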

Additional observations from a re-analysis of the deposited data

How the results depend on the processing

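No paired analysis was possible because each group is 1 library. Of 66 values of 9 results under 14 alternative settings, 37 stayed within the interval of the reported value (counts of genes, within 1.5 times) and 29 moved. The share over the control was 7.67% by summit, 4.10% with 50% of the row inside, 17.0% with control rows widened by 500 bp, 0.264% with the control shortened to as many rows by score, and 41.5% for rows above 54 tags, the upper quartile. The distal share outside the control was 67.1%, 60.0%, 61.7%, 73.3%, 24.4%, 67.2% and 44.3% with a widened control, a shortened control, the higher-scoring 50% of rows, limits of 5 and 50 kb, outside all FLAG control and histone input lists, and above the upper quartile of tags. The distal share over the control was 14.5% with 50% of the row inside, 0% of 4 rows with the shortened control, and 32.4% and 12.1% at 5 and 50 kb. It was below the distal share outside the control in each setting run on both. Genes nearest to distal rows numbered 367 and midbrain genes 2 in the higher-scoring 50% of rows, and 271 and 1 at 50 kb. The tag difference was 49 with a widened and 232 with a shortened control. The conservation difference was -53.5 with the shortened control and 45 at 50 kb. For forebrain H3K4me1, the settings chosen after seeing the data gave 90.0% of the distal rows in the higher-scoring 50% of rows. Distal control rows were at 22.6% by summit, 32.7% in their higher-scoring 50%, 37.8% at middle row lengths and 6.88% outside all 8 SMARCA4-FLAG lists. The cause of these moves was not tested, beyond what each setting changes by construction. Every share rests on 1 library, the tags per row set what the authors could call, and a false discovery rate of 100% on every SMARCA4-FLAG row limits how far any single row can be read.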
